A study of Mus musculus with 3 samples.

Results

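Many genes that serve other organs have no known role in haematopoietic stem cells (HSCs), the bone marrow cells from which all blood lineages arise. The genes described here were selected on low chromatin accessibility at their start sites. They are the protein-coding genes of chromosomes 1 to 19 in the GENCODE vM21 annotation, without the Olfr, Vmn1r, Vmn2r and Zfp gene families, whose windows of 1 kb either side of every annotated transcript start held at most 5 ATAC fragments of passing cells in all. Of 18962 eligible genes, 1847 met this limit, which is 9.74% of them. The limit itself fixes how low these values are, so the counts that chose the genes are given as a description and without a test.

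The study profiled HSCs by DOGMA-seq, which reads chromatin accessibility (ATAC), RNA and antibody-derived tags from the same cells. A single ATAC library is described here. Its cells were wild-type long-term HSCs from the bone marrow of 8-week-old C57BL/6J mice, enriched for c-Kit with beads and then sorted for Sca-1, c-Kit and CD150 in the absence of lineage markers, CD48 and CD34, with dead cells left out by the dye 7AAD. It was analysed as 1 sample with no replicate, and the animal each cell came from was not used here, so nothing here is a comparison between samples.

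The library held 42000180 unique fragments. Of 3757 called cells, 3108 had more than 3000 fragments in peaks and are the passing cells, with 37191101 fragments and a median of 11457 per cell. No doublet caller was run here and no cell was removed as a doublet, so the passing cells may include some. The other 4809079 fragments, from barcodes that were not called as cells and from 649 called cells with fewer peak fragments, were not used to choose the genes and are called held-out fragments. All 12 HSC and progenitor markers examined were outside the nearly closed group, from 58 fragments at *Ly6a*, whose windows were only 62.3% unique, to 3441 at *Gata2*. Among markers of other blood cells, *Ly6g*, a surface protein of neutrophils, had 3 fragments. T cell markers ran from 11 fragments at *Cd8a* to 1409 at *Cd3d*. B cell markers ran from 59 at *Cd79a* to 1566 at the factor *Pax5*.

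In ATAC-seq the transposase Tn5 cuts DNA that is not wrapped tightly around nucleosomes, and a fragment is the piece between a pair of cuts. Promoters of genes used by every cell are mostly rich in CpG dinucleotides and stay free of nucleosomes even where transcription is low. Promoters of many tissue-restricted genes are poor in CpG, and are packed in nucleosomes until the factors of their own tissue are present. A fragment is placed only where its reads match the genome better than anywhere else, so a promoter with identical copies can appear empty whether or not it is open.

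Start regions of 300 bases, from 250 before the gene start to 50 after it, are shown in the direction of the gene for 1 uniquely mappable gene of each of the 4 families with the most nearly closed members, and for the cases that stood apart in sequence. All were read from GRCm38, and capitals mark CpG dinucleotides. *Krtap1-5* (keratin-associated proteins, hair) lies at chr11:99580967-99581266 on the minus strand, *Cyp2c66* (cytochrome P450) at chr19:39113648-39113947 on the plus strand, *Scgb1b27* (secretoglobins) at chr7:34021233-34021532 on the plus strand, and *Tas2r103* (bitter taste receptors) at chr6:133037052-133037351 on the minus strand. *Krtap5-4*, at chr7:142303299-142303598 on the plus strand, had the most fragments of its family. *Hist1h2ba*, at chr13:23934107-23934406 on the minus strand, had the highest CpG ratio of the nearly closed genes with unique windows and a GC content of at least 50%. The start regions of *Amy2a2*, at chr3:113356609-113356908, and *Amy2a3*, at chr3:113324003-113324302, both on the minus strand, were the same in all 300 bases and are printed once. The start region of *Gata2*, at chr6:88193641-88193940 on the plus strand, was added after the values were seen, as an example of an open promoter.
Krtap1-5: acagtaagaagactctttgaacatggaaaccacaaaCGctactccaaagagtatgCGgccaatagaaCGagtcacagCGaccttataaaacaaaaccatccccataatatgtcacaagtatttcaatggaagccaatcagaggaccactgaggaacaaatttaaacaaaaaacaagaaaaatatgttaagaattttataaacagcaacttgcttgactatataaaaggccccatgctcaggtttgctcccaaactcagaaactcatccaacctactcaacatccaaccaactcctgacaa
Cyp2c66: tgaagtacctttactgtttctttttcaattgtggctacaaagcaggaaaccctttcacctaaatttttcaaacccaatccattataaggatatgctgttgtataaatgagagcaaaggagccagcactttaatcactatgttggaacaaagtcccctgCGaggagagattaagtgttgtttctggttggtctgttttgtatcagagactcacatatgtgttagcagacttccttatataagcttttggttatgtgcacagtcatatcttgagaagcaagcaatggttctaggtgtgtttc
Scgb1b27: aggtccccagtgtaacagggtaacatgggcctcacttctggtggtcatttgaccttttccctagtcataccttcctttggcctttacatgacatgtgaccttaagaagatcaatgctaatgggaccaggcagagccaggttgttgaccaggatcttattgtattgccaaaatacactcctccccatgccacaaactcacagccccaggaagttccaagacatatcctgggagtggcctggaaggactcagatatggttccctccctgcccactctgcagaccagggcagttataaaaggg
Tas2r103: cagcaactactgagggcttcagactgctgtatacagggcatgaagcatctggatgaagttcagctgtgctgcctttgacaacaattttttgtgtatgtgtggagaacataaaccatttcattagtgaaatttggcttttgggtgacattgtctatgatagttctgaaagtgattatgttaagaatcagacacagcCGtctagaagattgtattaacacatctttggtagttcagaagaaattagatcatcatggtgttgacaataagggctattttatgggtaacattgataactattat
Krtap5-4: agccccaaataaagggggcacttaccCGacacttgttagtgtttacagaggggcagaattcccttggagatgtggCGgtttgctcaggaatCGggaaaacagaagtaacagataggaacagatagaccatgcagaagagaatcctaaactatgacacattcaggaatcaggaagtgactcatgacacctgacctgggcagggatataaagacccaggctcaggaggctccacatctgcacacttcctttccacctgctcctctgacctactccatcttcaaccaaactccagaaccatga
Hist1h2ba: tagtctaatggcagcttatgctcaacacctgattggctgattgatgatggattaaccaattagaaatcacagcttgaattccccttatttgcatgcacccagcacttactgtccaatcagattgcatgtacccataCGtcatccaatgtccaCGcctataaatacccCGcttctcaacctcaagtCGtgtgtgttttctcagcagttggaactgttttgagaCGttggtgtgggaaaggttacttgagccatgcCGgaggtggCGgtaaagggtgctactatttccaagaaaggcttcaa
Amy2a2 and Amy2a3: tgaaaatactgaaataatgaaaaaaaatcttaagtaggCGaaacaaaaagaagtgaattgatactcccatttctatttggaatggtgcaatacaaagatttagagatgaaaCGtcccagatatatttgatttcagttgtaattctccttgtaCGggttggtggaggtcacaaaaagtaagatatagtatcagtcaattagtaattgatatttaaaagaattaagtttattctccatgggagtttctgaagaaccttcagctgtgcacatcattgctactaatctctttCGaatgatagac
Gata2: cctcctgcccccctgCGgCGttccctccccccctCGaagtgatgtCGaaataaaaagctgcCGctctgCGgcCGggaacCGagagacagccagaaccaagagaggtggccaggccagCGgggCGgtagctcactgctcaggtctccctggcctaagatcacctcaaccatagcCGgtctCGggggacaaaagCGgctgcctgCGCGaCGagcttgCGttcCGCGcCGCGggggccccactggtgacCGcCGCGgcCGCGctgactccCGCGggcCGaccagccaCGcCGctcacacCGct

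These start regions differed most plainly in their CpG content. *Gata2* had 32 CpG dinucleotides and 3441 fragments, *Krtap1-5* had 4 and *Scgb1b27* had 0, with 0 and 1 fragments. The median over all nearly closed genes was 2 CpG dinucleotides in the 300 bases, against 13 over all eligible genes, and 15.8% of nearly closed genes had none at all against 2.95% of all eligible genes.

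The nearly closed group held 3615 fragments of passing cells in all, over 4391 kb of start windows. No fragment was found at 530 genes, which is 28.7% of the group. A further 317 genes had 1 fragment, 318 had 2 and 278 had 3. Just inside the limit, 192 genes had 4 fragments and 212 had 5, and just outside it 148 had 6 and 147 had 7, so the counts ran on across the limit without a gap. The median over all eligible genes was 593 fragments.

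**Figure D1:**
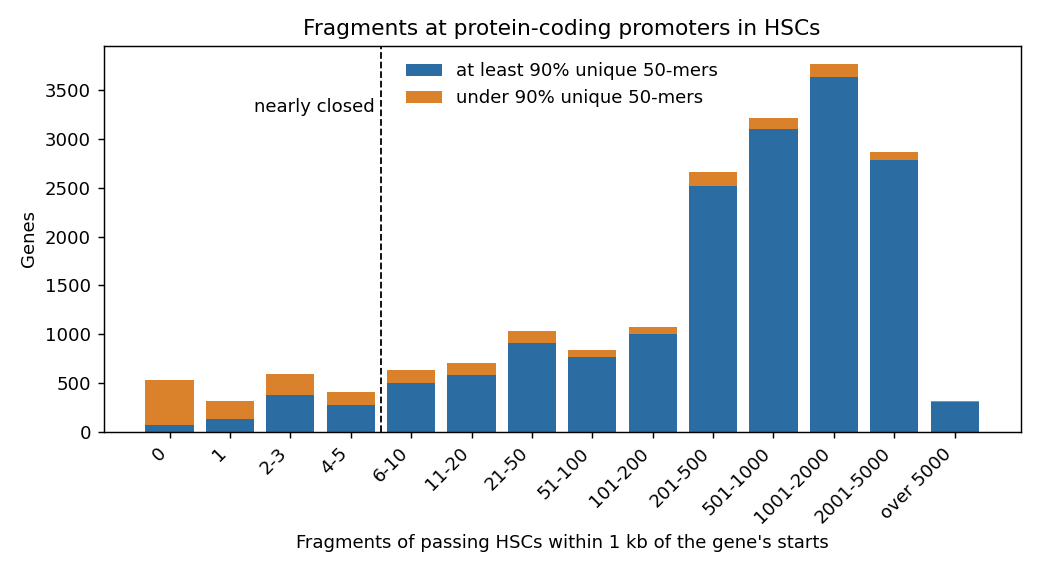
Number of genes (vertical axis) by fragments of passing HSCs in the windows 1 kb either side of the gene's starts (horizontal axis, classes of unequal width), with genes split by the share of unique 50-mers in those windows. The dashed line is the limit of 5 fragments, and of 530 genes with no fragment 458 had windows under 90% unique.

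Low counts of this kind were common outside promoters. Of 1060626 autosomal tiles of 2 kb that held no annotated gene's start window and no assembly gap, 58.2% had at most 5 fragments, and the median tile had 4. Density was 1.03 per kb in tiles with at most 5 fragments, 0.823 (95% exact Poisson interval 0.797 to 0.851) in nearly closed windows and 1.17 (1.13 to 1.22) in those at least 90% unique. Both the genes and these tiles were chosen by the same limit, so nothing is read from how near these levels are. The tiles were not filtered for repeated sequence. Fragment length, which played no part in choosing the genes, was compared as well. Fragments shorter than 150 bp, about the length of DNA on a nucleosome, made up 18.3% of the fragments at nearly closed promoters (95% exact binomial interval 17.1 to 19.6), 18% (17.9 to 18.1) in tiles with at most 5 fragments, 34.6% over all tiles and 55.3% over all eligible promoters. Intervals here cover counting error only, and they treat fragments as independent.

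Held-out fragments were few on nearly closed promoters too. They fell on nearly closed windows at 0.113 per kb and per 1000000 held-out fragments (95% exact Poisson interval 0.109 to 0.118), on tiles with at most 5 fragments at 0.133 (0.133 to 0.134), on all tiles at 0.287 and on all eligible promoters at 4.03. Nearly closed windows thus lay below the tiles with at most 5 fragments, whereas those at least 90% unique lay above them, at 0.169 (0.160 to 0.177). In nearly closed genes with at least 90% unique windows, held-out fragments averaged over 1 kb either side of the start were about as dense as those further away. Fragment midpoints lay within 1 kb of the gene start at 0.156 per kb and gene, on the same scale (0.147 to 0.164), and between 2 and 10 kb away at 0.157 (0.154 to 0.160). In passing cells the corresponding levels were 0.0300 and 0.0545, where the lower value at the start follows from the way the genes were chosen. In the bins centred 0.1 kb before and after the start, held-out fragments stood at 0.175 and 0.172. Single bins between 2 and 10 kb away ran from 0.109 to 0.189. Passing cells had 0.0357 and 0.0389 in those 2 central bins, above the 0.0254 to 0.0336 of the other bins within 1 kb. Genes with more than 500 fragments had 13.2 at the start and 0.990 in the flanks among held-out fragments. Held-out fragments come from the same library. Of the 2392 on nearly closed windows, 294 came from called cells and the rest from barcodes not called as cells.

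**Figure D2:**
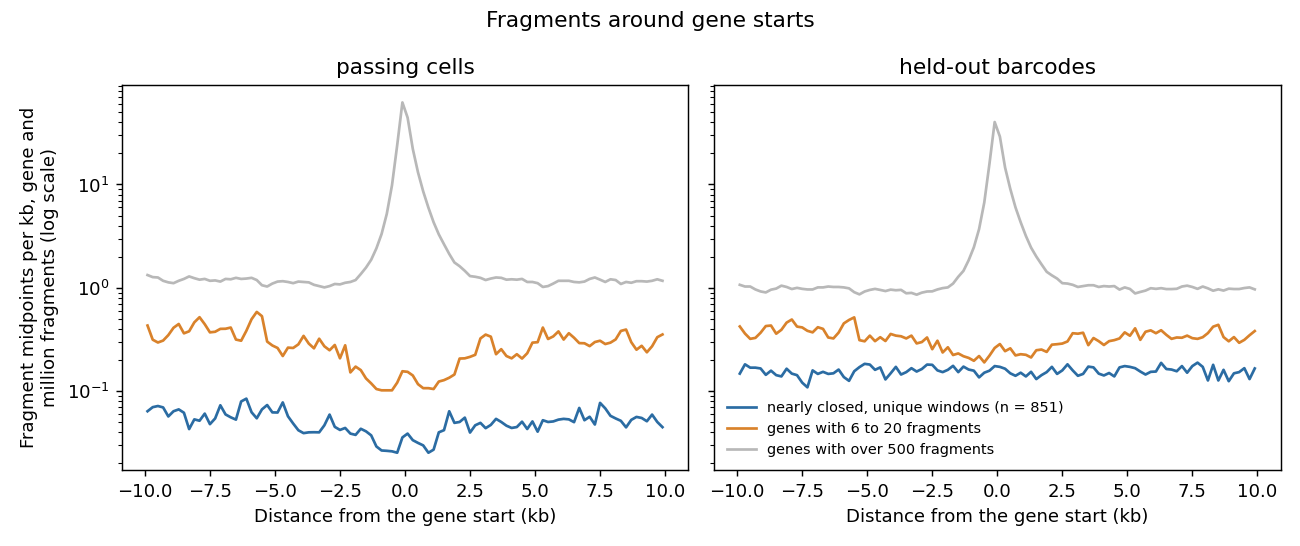
Fragment midpoints per kb and gene, scaled to 1000000 fragments (vertical axis, log scale) against distance from the gene start in kb (horizontal axis), for passing cells and for held-out barcodes. In held-out barcodes the 851 nearly closed genes with unique windows averaged 0.156 within 1 kb of the start and 0.157 beyond 2 kb.

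Nearly closed genes were frequent where the start windows were repeated elsewhere in the genome. A 50-mer was called unique when it occurred once in the primary assembly on either strand. All 153 eligible genes whose windows had no unique 50-mer were nearly closed. The share fell to 86.8% of 363 genes with up to 25% unique windows, to 43.4% of 452 genes between 50 and 75%, and to 4.70% (95% exact binomial interval 4.28 to 5.14) of 9691 genes with at least 99%. Of the 1847 nearly closed genes, 851 had windows at least 90% unique, 406 lay between 50 and 90%, and 590 lay under 50%. In the 851, nearly all of the window could receive fragments. How much unplaced reads contributed to the low counts of the others was not tested. Held-out fragments followed the same division, at 0.169 (0.160 to 0.177) per kb and 1000000 in the 851 and 0.0245 (0.0210 to 0.0284) in the 590.

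**Figure D3:**
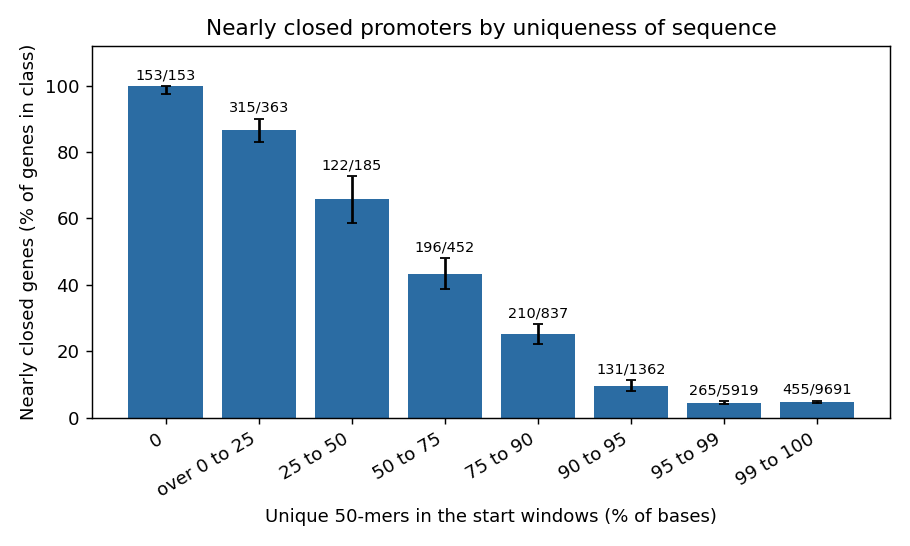
Share of eligible genes that were nearly closed (vertical axis, percent, with 95% exact binomial intervals) by the share of unique 50-mers in their start windows (horizontal axis), with the number of nearly closed genes over all genes in each class. All 153 genes without a unique 50-mer were nearly closed, against 4.70% of those at least 99% unique.

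The nearly closed genes shared features of sequence that the rule did not use. The CpG ratio, the observed over the expected number of CpG dinucleotides within 1 kb of the gene start, had a median of 0.141 against 0.516 over all eligible genes, and was under 0.4 in 94.4% of nearly closed genes (93.2 to 95.4) against 38.0% of all eligible genes. In the 851 with unique windows it was under 0.4 in 96.4%, against 33.8% of all eligible genes with unique windows. Median GC content was 42.4% against 52.2%. The CpG ratio fell along with the fragment count over all genes, from a median of 0.644 with more than 500 fragments to 0.245 with 21 to 100 and 0.204 with 6 to 20.

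Promoter motifs were searched in the 300 bases as exact letters on both strands. TATAAA, the core of the TATA box that positions transcription at many tissue-specific genes, was present in 28.0% of nearly closed genes and 11.3% of all eligible genes. Starting between 40 and 20 bases before the gene start on the gene strand, where a TATA box acts, it was present in 9.80% (8.48 to 11.2) against 2.49%. GGGCGG, the GC box bound by Sp1, was present in 4.87% against 47.1%, and CCGGAAG, the core bound by ETS factors, in 2.06% against 11.6%. TGACGTCA, the cAMP response element, was present in 0.975% against 2.56%. CCAAT, bound by NF-Y, was present in 43.9% against 37.9%. A match is a description of the letters, and the motifs for Sp1, ETS factors and the cAMP response element each hold a CpG, which was itself rarer at nearly closed genes. Most nearly closed genes had a single annotated start, 62.8% against 21.3%, and their median length was 6.16 kb against 19.7 kb. The rule summed fragments over all starts of a gene, so genes with fewer starts had less window in which to reach the limit.

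Only 15 nearly closed genes, 0.812%, had a CpG-rich start, with a ratio of at least 0.6 and GC content of at least 50%, against 33.3% of all eligible genes. In 11 of them the windows had no unique 50-mer. These included the replication-dependent histone genes *Hist1h2bq*, *Hist1h2br*, *Hist1h2ao* and *Hist1h2ap*, which supply histones during DNA replication, and *Slc25a37*, the mitoferrin that brings iron into mitochondria of red cell precursors. All 11 had 0 fragments and 0 held-out fragments. *Slc25a37* and *Gm16867* had the same CpG ratio of 0.675, and *Entpd4* and *Entpd4b* the same ratio of 0.645. For these genes the fragments carry no reading of the promoter in HSCs.

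With at least 90% unique windows, 2 CpG-rich genes remained, and they share a start region. *Hist1h2ba* and *Hist1h2aa* encode histone variants known from developing sperm and are transcribed away from each other. *Hist1h2ba* had 5 fragments, a CpG ratio of 0.650 and a GC content of 51.1%, and *Hist1h2aa* had 3 fragments, a ratio of 0.627 and 50.2%. Neither had a held-out fragment. The windows of the pair overlap, so a fragment can count for both genes. *Mael*, a gene of the germline piRNA pathway, missed the GC limit at 49.8% and had a ratio of 0.606 and 5 fragments in fully unique windows. It was named after its values were seen.

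Gene families fixed as lists by symbol held 628 of the nearly closed genes, 34.0% (31.8 to 36.2), against 7.90% of all eligible genes. In the 851 with unique windows the share was 40.2%, against 6.42% of all eligible genes with unique windows. A further 640 had the provisional Gm symbols of predicted genes, of which 120 had unique windows, and 89 had Riken clone symbols, of which 57 did. Gm symbols made up 34.7% of nearly closed genes and 6.48% of all eligible genes, and Riken symbols 4.82% and 2.84%. The other 490 had gene names outside the fixed families, and 332 of these had unique windows. Of 66 families, 62 had at least 1 nearly closed gene, 22 had at least 10 and 6 were nearly closed throughout. None was found among 39 Hox genes, with a median of 492 fragments, or 92 Kcn potassium channel genes, with a median of 217.

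**Figure D4:**
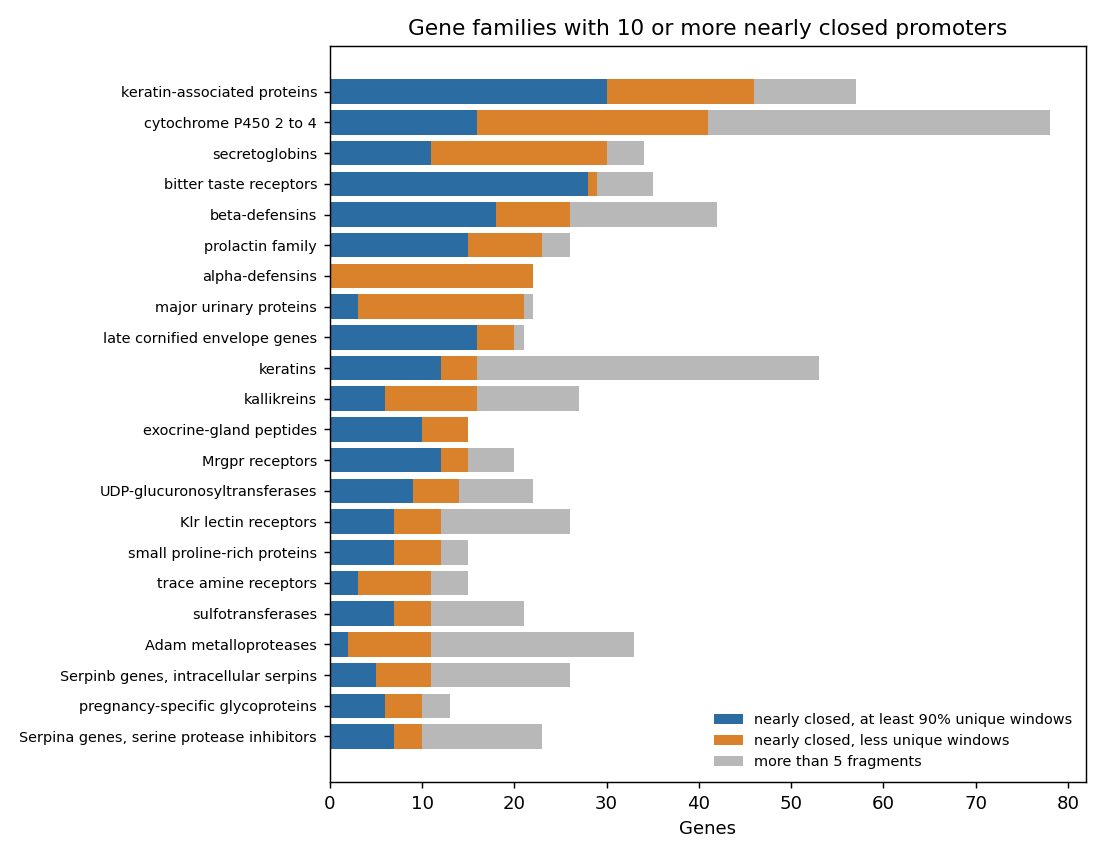
Genes (horizontal axis) in each of the 22 families with at least 10 nearly closed members (vertical axis), split into nearly closed genes with windows at least 90% unique, nearly closed genes with less unique windows, and genes with more than 5 fragments. Bitter taste receptors and keratin-associated proteins were nearly closed mostly in unique sequence, and alpha-defensins had no member with unique windows.

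Families of skin and hair were prominent. Keratin-associated proteins, which fill the hair shaft, were nearly closed at 46 of 57 genes, 30 of them with unique windows. *Krtap1-5* and *Krtap20-2* had 0 fragments, and the family's highest count was 23 at *Krtap5-4*. Late cornified envelope genes, which form the outer layer of the epidermis, were nearly closed at 20 of 21 genes, with 0 at *Lce1m* and *Lce1b* and at most 7 at *Lce1g*. Small proline-rich proteins, cross-linked into the same layer, were nearly closed at 12 of 15 genes, with 0 at *Sprr2k*, 1 at *Sprr2i* and at most 9 at *Sprr1a*. These families were low over nearly all their genes. Keratins, the filament proteins of epithelia, were not uniformly low. They were nearly closed at 16 of 53 genes, with 0 fragments at *Krt23* and 1 at *Krt39*, but 427 at *Krt10*.

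Receptor families of sensory cells were low as well. Bitter taste receptors were nearly closed at 29 of 35 genes, and 28 of the 29 had unique windows, so nearly all of these could receive fragments. *Tas2r103* and *Tas2r106* had 0 fragments, and *Tas2r126* had the most, 74. Mrgpr receptors, which detect itch and pain in sensory neurons, were nearly closed at 15 of 20 genes, with 0 fragments at *Mrgpra9*, 1 at *Mrgprb1* and 267 at *Mrgpre*. Trace amine receptors of the nose were nearly closed at 11 of 15 genes, but with unique windows at only 3 of these. The lowest of those, *Taar3* and *Taar2*, had 2 and 3 fragments, and *Taar6* had the most, 29. Klr lectin receptors of natural killer cells were nearly closed at 12 of 26 genes, with 2 fragments at *Klrk1* and *Klra3* and 468 at *Klrg2*.

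Secreted proteins of glands and mucosa were low too, in part in copied sequence. Alpha-defensins, antimicrobial peptides of the gut, were nearly closed at all 22 genes, with no gene in unique windows and at most 3 fragments, at *Defa27*. Major urinary proteins, pheromone carriers made in liver, were nearly closed at 21 of 22 genes, 3 of them with unique windows. Among these *Mup3* and *Mup4* had 2 fragments each, and *Mup5*, the gene outside the limit, had 8. Exocrine-gland peptides, released in tears, were nearly closed at all 15 genes, 10 with unique windows, and *Esp22* and *Esp31* had 0 fragments and 0 held-out fragments. Secretoglobins were nearly closed at 30 of 34 genes, 11 with unique windows, with 0 fragments at *Scgb3a2*, which is made in the airway, and 1 at *Scgb1b27*. In that family *Scgb1c1* stood far apart, with 637. Beta-defensins of the epididymis were nearly closed at 26 of 42 genes and kallikreins, serine proteases of the salivary gland, at 16 of 27. *Defb13* had 0 fragments, *Defb37* had 1 and *Defb30* had 124. *Klk1b9* had 0, *Klk1b16* had 2 and *Klk8* had 185.

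Families of the placenta differed among themselves. The prolactin family, which includes pituitary prolactin and many placental hormones, was nearly closed at 23 of 26 genes, 15 with unique windows. *Prl7a1* and *Prl7a2* had 0 fragments, *Prl* itself had 2, and the most in the family was 10, at *Prl6a1*. Pregnancy-specific glycoproteins were nearly closed at 10 of 13 genes, with 1 fragment at *Psg25* and *Psg26* and 188 at *Psg16*. Placental cathepsins and their inhibitors were nearly closed at only 2 of 10 genes, with a median of 9.50 fragments and 1220 at *Ctla2b*, and Ceacam adhesion genes at 5 of 15, with a median of 8.

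Families of enzymes and protease inhibitors, several of them made mainly in liver, were mixed. Cytochrome P450 genes of groups 2 to 4, which oxidise drugs and steroids, were nearly closed at 41 of 78 genes, 16 with unique windows. *Cyp2c66* had 0 fragments and *Cyp2c70* had 1, while *Cyp2r1*, the vitamin D 25-hydroxylase, had 1220. UDP-glucuronosyltransferases were nearly closed at 14 of 22 genes, with 0 fragments at *Ugt2a1* and *Ugt2b34* and 387 at *Ugt8a*, which makes lipids of myelin. Sulfotransferases were nearly closed at 11 of 21 genes, with 0 at *Sult2a3*, 1 at *Sult2a6* and 801 at *Sult2b1*. Serine protease inhibitors of the Serpina and Serpinb groups were nearly closed at 10 of 23 and 11 of 26 genes, with 1 fragment at *Serpina16* and *Serpinb13*, 2 at *Serpina10* and *Serpinb3d*, 260 at *Serpina3g* and 1129 at *Serpinb6a*. Adam metalloproteases, many of them used in testis, were nearly closed at 11 of 33 genes, of which only 2, *Adam24* with 2 fragments and *Adam18* with 3, had unique windows, while *Adam9* had 5801.

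Smaller families gave further cases. Skint genes, which shape skin T cells in the thymus and epidermis, were nearly closed at 9 of 11 genes, 8 of them with unique windows, and the most was 6 fragments, at *Skint7*. Obox homeobox genes of the oocyte and early embryo were nearly closed at all 7 genes, only 2 with unique windows. They had at most 3 fragments, at *Obox3*. Reg lectins of the gut and pancreas were nearly closed at 6 of 7 genes, 5 with unique windows. Granzymes, proteases of killer lymphocytes, were nearly closed at 7 of 10, 4 with unique windows, with 118 fragments at *Gzmm*. Type I interferons, the antiviral cytokines, were nearly closed at 8 of 17 genes, only 3 with unique windows, while *Ifnb1* had 78 fragments. Among Spink protease inhibitors 8 of 13 were nearly closed and *Spink10* had 1437. None of 18 Wfdc genes and none of 10 lipocalins, both families of secreted proteins, was nearly closed, although their medians of 19.5 and 14.0 fragments were far under the 593 of all eligible genes.

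Some families consist in part of promoters that cannot be told apart. The 300 bases around the gene start were the same as those of another nearly closed gene in 156 nearly closed genes, 8.45%. Among the genes with more than 5 fragments, 32 shared theirs with another of these, 0.187%. They formed 69 groups, the largest of 7 genes. *Amy2a2*, *Amy2a3*, *Amy2a4* and *Amy2a5*, which encode pancreatic amylase, were such a group, and *Defa2* with *Defa33*, *Defa20* with *Defa32* and *Defa21* with *Defa22* were alpha-defensin pairs. Of the 6 amylase genes, 5 had 0 fragments and only *Amy1*, the salivary form, had unique windows, with 5 fragments.

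Held-out fragments gave a second reading of the family members named above that had 0 fragments of passing cells and unique windows. They had between 0 and 3. *Tas2r106* had 3, and *Krt23*, *Klk1b9*, *Prl7a1*, *Prl7a2* and *Tas2r103* had 2. *Krtap1-5*, *Defb13*, *Esp22*, *Esp31*, *Mrgpra9*, *Scgb3a2* and *Sprr2k* had 0 in that reading too. Counts between 0 and 3 lie within counting error of each other, so these genes are not distinguished from each other.

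Lists of genes that mark single tissues gave a further view. Over 23 such lists, 42 of 222 genes were nearly closed, 18.9%, and 33 of the 42 had unique windows. Over all eligible genes the share was 9.74%. In kidney 4 of 10 genes were nearly closed, with 0 fragments at *Cldn16*, a channel of the thick ascending limb, 2 at *Umod*, which encodes uromodulin, and 4 at *Kap* and *Slc12a1*. In skeletal muscle 3 of 11 were, the fast myosin heavy chains *Myh1*, *Myh4* and *Myh2* with 0, 1 and 3 fragments. These stand side by side on chromosome 11. In liver only *Cps1*, of the urea cycle, with 1 fragment, and *Alb*, serum albumin, with 3, were nearly closed among 14 genes. No gene was nearly closed in the lists for heart, neurons, glia, lens and retina, ear and nose, or intestine and stomach, and the median neuronal gene had 384 fragments.

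Glands and reproductive tissue held further members. The lists for salivary and lacrimal gland held 6 nearly closed genes of 8, but with unique windows at only 3, the lowest being *Esp15* with 0 fragments in windows 72.4% unique and *Prol1* and *Scgb2b27* with 3 each. Seminal vesicle and prostate had 3 of 6, which were *Svs6* with 1 fragment in windows 84.7% unique, *Svs4* with 3 and *Spink1* with 4. Placenta had 3 of 8, which were *Prl2c2* with 0 in windows 21.1% unique, *Prl3d1* with 1 in windows 81.2% unique and *Prl3b1* with 3. Mammary gland had 2 of 7, *Csn2* and *Csn3*, which encode milk caseins, with 2 fragments each. Lung had 2 of 8, *Scgb3a2* with 0 and *Lamp3* with 4, and pituitary and thyroid had 2 of 10, *Fshb* and *Prl* with 2 each.

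The remaining lists had a single nearly closed gene each, a share near the 9.74% of all eligible genes. Testis had 1 of 12, *Tnp1*, a transition protein of spermatids, with 1 fragment. Oocyte had 1 of 10, *Zp2* of the egg coat with 2, while *Gdf9* had 5576. Exocrine pancreas had 1 of 11, *Gp2* with 2, and pancreatic islet had 1 of 10, *Slc30a8*, the zinc carrier of beta cells, with 1. Epidermis and hair had 1 of 10, *Dsg3* with 3, while *Krt10* had 427. Bone and cartilage had 1 of 9, *Ibsp* with 2, while *Col2a1*, a collagen of cartilage, had 1110.

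Lists of mature blood cells differed. None of 3 T cell, 3 B cell, 4 erythroid and 2 macrophage markers was nearly closed, but some were low. The lowest of these lists were *Cd8a* with 11 fragments, *Cd79a* with 59, *Hba-a1* with 8 in windows 34.1% unique, and *Adgre1* with 21. In the natural killer list 5 of 9 genes were nearly closed. *Gzma* and *Klra8* had 3 fragments, the latter in windows 65.8% unique, *Klrc1* had 4, and *Gzmb* and *Ncr1* had 5. In the list for mast cells and eosinophils 4 of 11 were, the mast cell proteases *Mcpt1* with 1 fragment and *Mcpt2* with 2, and the ribonucleases *Ear2* with 1 and *Ear1* with 5, the ribonucleases in windows under 50% unique. *Ly6g* was the only 1 of 4 granulocyte markers in the group, and the others had 17 fragments at *S100a8*, 71 at *Elane* and 174 at *Mpo*. These genes are used by descendants of the HSC, and the nearly closed ones held between 1 and 5 fragments.

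Among the uniquely mappable genes with the fewest fragments per kb, all at 0, were genes of several tissues. Besides *Cldn16*, *Myh1*, *Scgb3a2*, *Prl7a1*, *Mrgpra9* and *Cyp2c66*, they included the carriers *Slc22a22*, *Slco1a1* and *Slc7a12*, *Odam* of the tooth, *Omd* of bone matrix, *Csta1* of epithelia and *ccdc198*. *Slc22a22* had the largest start windows of these, 4.03 kb, and 2 held-out fragments. The flanks of these genes still held fragments, from 0.632 per kb at *Odam* to 2.16 at *Omd* within 10 kb of the starts and outside every start window. *Myh1* had 6 held-out fragments and *Cldn16* had 3, while *Odam*, *Omd*, *Csta1* and *ccdc198* had 0.

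The chromosomes differed in their share of nearly closed genes. It was 25.8% on chromosome 14, with 221 of 855 genes, and at most 12.7% on the others, the lowest being 5.37% on chromosome 15. Counted over genes with unique windows, chromosome 14 had 4.53%, with 28 of 618 genes, and lay within the range of 2.77% on chromosome 10 to 8.57% on chromosome 6. The high share of chromosome 14 was thus not seen among genes with unique windows.

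Nearly closed genes lay side by side. A neighbouring eligible gene was nearly closed for 77.0% of them, and for 7.10% of the other genes. Runs of at least 5 nearly closed genes with neighbouring starts no more than 500 kb apart numbered 85 and held 1244 genes, 67.4% of the group, and in 35 runs no other eligible gene lay in between. Members of a run share a family or a stretch of chromatin and are not independent of each other.

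The longest runs were of copied sequence. They held 85 genes over 4.61 Mb of chromosome 14 (chr14:3030002-7643972), with no unique window among them and 84 Gm symbols, and 70 genes over 3.60 Mb further along it (chr14:41151458-44750340), with 1. A run on chromosome 7 (chr7:20121656-23362277) held 36 genes with 0 unique windows. By contrast, 58 genes in the epidermal cluster of chromosome 3 (chr3:92014583-94643600) included 34 with unique windows, from *Lce* and *Sprr* genes to *Lelp1* and *Kprp*. The keratin cluster of chromosome 11 (chr11:99315516-100248902) held 55, with 30 in unique windows, and the defensin cluster of chromosome 8 (chr8:18974940-21974041) held 61, with 21.

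Runs read mostly in unique sequence covered well known loci. On chromosome 5 (chr5:86231481-88506049) 35 genes over 2.27 Mb, 29 with unique windows, took in *Tmprss11* proteases of airway and skin, *Ugt2* enzymes, caseins and enamel genes such as *Ambn* and *Enam*. On chromosome 13 (chr13:27057570-28258134) 22 genes, 15 with unique windows, were the prolactin locus. On chromosome 6 (chr6:132206795-133295792) 25 genes, 18 with unique windows, were led by bitter taste receptors, with 1 other eligible gene among them. On chromosome 7 (chr7:47234861-48643811) 14 genes, 11 with unique windows, were all Mrgpr receptors. On chromosome 14 (chr14:56017971-56262260) 11 genes, 7 with unique windows, were granzymes and mast cell proteases with *Ctsg*, a protease of neutrophil granules.

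Surrounding DNA was low as well. In nearly closed genes with unique windows the median density of fragments was 1.21 per kb within 10 kb of the starts and 2.02 per kb within 100 kb, both outside every start window, against 13.8 and 14.7 for all eligible genes with unique windows. Inside the gene bodies the medians were 1.29 and 11.4. The flanks were not used by the rule, but they lie beside the windows and share their sequence environment, and genes of a run share flanks. No nearly closed eligible gene was next to 424 of the 1847 genes.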

How the data were processed

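The authors processed the ATAC library with Cell Ranger ARC 2.0.2 and its mm10 reference, which aligns reads, merges duplicates and calls cells from both ATAC and RNA. They deposited each fragment with its barcode and its count of read pairs, and per-barcode counts of fragments, in all and in peaks; no deposited count was normalized. A further 27 value columns of the per-barcode table were not used, nor were the tag counts. Cell Ranger ARC keeps read pairs that map with confidence.

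Fragments were counted once per gene where they overlapped the merged windows of 1 kb either side of its GENCODE vM21 transcript starts. Sequence came from the RefSeq copy of GRCm38, the build of mm10, and 0 fragments ended beyond the end of a chromosome. A 50-mer was unique when found once in the primary assembly, on both strands together. Gene bodies, flanks and tiles left out assembly gaps and the start windows of every annotated gene of any type. Python 3.11.15 was used with numpy 2.4.6, pandas 2.3.3, scipy 1.17.1, numba 0.67.0 and matplotlib 3.10.9, and the counting and uniqueness steps were tested on simulated data. With 1 library there is no replicate, so no p-value is given. Intervals are 95% exact Poisson or binomial ones and cover counting error only. The members, families, tissue lists and rules were chosen with earlier results of these data known. Named genes were, per family with at least 10 members, the 2 lowest with unique windows and the highest of the family; the 15 lowest per kb with at least 95% unique windows and no Gm or Rik symbol; up to 5 CpG-rich members with unique windows; the 3 lowest of each tissue list; and blood cell markers. 4 family patterns that caught unrelated symbols were narrowed after the data were seen. Genes named beside long runs, as CpG-rich copies, or beyond these rules in lists with up to 5 members were chosen after their values were seen. The limit of 150 bp for short fragments was also set after the data were seen. Some genes that these rules select are not reported here.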

Additional observations from a re-analysis of the deposited data

How the results depend on the processing

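The number of nearly closed genes, 1847, stayed within 1.5 times under 11 of 12 alternatives, from 1261 with windows of 2 kb either side to 2483 with a limit of 10 fragments, and was 851 when only genes with windows at least 90% unique were taken. Counting fragments by their ends, or adding the limit of 15% of fragments in peaks, left it at 1847. The share with unique windows, 46.1%, was 40.1% at a limit of 3 fragments, 54.3% at 10, 53.1% with windows of 500 bases, 35.8% with 2 kb, 49.1% at 2.5 fragments per kb and 49.9% with fragments of 2 or more read pairs. The share in the gene families, 34.0%, and that of CpG-poor genes, 94.4%, lay within their intervals throughout, except at 40.2% and 96.4% among genes with unique windows. The held-out density, 0.113 per kb and 1000000 held-out fragments, was 0.0980 and 0.136 at limits of 3 and 10, 0.133 and 0.0887 with 500 bases and 2 kb, 0.120 with each start taken separately, 0.126 at 2.5 fragments per kb, 0.134 with protein-coding transcript starts, 0.122 with 2 or more read pairs and 0.169 with unique windows. It has no value with all called cells, since some held-out barcodes would then choose the genes. With at most 5 fragments a gene, counting error covers most differences between genes inside the limit. No paired analysis was possible because there is 1 library.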

Other observations

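Some start windows were nearly closed beside open chromatin. Among the 851 genes with unique windows, the highest flank densities within 10 kb, chosen after the values were seen, were 59.8 fragments per kb at *Gm37388* in a protocadherin cluster of chromosome 18, 58.6 at *Pth*, which encodes parathyroid hormone, 50.5 at *Gpx5* of the epididymis and 49.7 at *Ms4a2*, a chain of the IgE receptor of mast cells. The median over these 851 genes was 1.21. The start windows themselves held 5, 2, 4 and 2 fragments. Within the gene body *Ms4a2* had 5.06 fragments per kb and *Pth* had 2.01.

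Some blood genes outside the fixed lists, picked after their values were seen because they were low, had unique windows. They stand for no list, and of the listed granulocyte markers *S100a8* had 17 fragments, *Elane* 71 and *Mpo* 174. *S100a9*, a calcium-binding protein of neutrophils, had 3 fragments. *Retnlg* of neutrophils and *Fcer1a*, another chain of the IgE receptor, had 3 and 4. *Il23r*, a cytokine receptor of T cells, had 0.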
